A study of Mus musculus with 28 samples.

Results

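Complement transcripts were followed in mouse veins that had been turned into an arteriovenous fistula (AVF), the vascular access used for hemodialysis. The set consisted of 9 genes taken by name: *C1qa*, *C1qb*, and *C1qc*, *C1ra* and *C1s1*, *C3* and *C4b*, *C7*, and *Serping1*. All 9 were found among the 56980 genes of the bulk table, all 9 were among the 12673 genes tested, and all 9 were among the 32285 genes of the single-cell matrices. C57BL/6 mice of both sexes had a 5/6 nephrectomy, and weeks later the jugular vein was joined to the carotid artery on one side. Bulk RNA sequencing covered 7 contralateral jugular veins (5 female, 2 male) and the outflow veins of 8 early (nominally day 3, 3 female, 5 male), 5 mid (day 10, 3 female, 2 male), and 5 late AVFs (day 21, 3 female, 2 male), with 1 vessel per library. Single-cell RNA sequencing covered contralateral veins, early AVFs, and late AVFs, with 1 library per condition made from a pool of 10 vessels of both sexes. The contralateral vein was thus a control from operated mice with reduced kidney mass, not a vein from an unoperated animal, and neither its day of harvest nor the day of the single-cell libraries is in the labels. By the study's methods, early and late AVFs for single cells were harvested later on average than the bulk AVFs of the same name. Bulk and single-cell values are therefore not matched in time.

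Complement is a cascade of plasma and tissue proteins that tags cells and debris, recruits leukocytes, and can open pores in membranes. The classical pathway starts when C1q, a recognition molecule built from A, B, and C chains, activates the serine proteases C1r and C1s, which then cleave C4 and C2 to form an enzyme that splits C3. The C1 inhibitor, encoded by *Serping1*, blocks C1r and C1s, and C7 joins the terminal complex downstream of C3 and C5. The liver makes most plasma complement, whereas C1q is made mainly by macrophages and dendritic cells, and fibroblasts of the vessel wall can make C1r, C1s, C3, C4, and C1 inhibitor locally.

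Library totals ranged from 20254173 to 67457501 counts, so counting error was small for every member except *C7* in early AVFs. Contralateral veins, the reference for the main comparisons, were least alike, with a median Spearman's rho between libraries of 0.678. It was 0.867, 0.956, and 0.953 within early, mid, and late AVFs. Early AVFs 5 and 6 stood apart from the other early libraries, with the highest C1q transcripts, and with AVF 7 they had the lowest fibroblast markers. AVFs 5 and 6 were also the deepest of all bulk libraries (67457501 and 53097813 counts) and had the lowest scaling factors (0.763 and 0.699). Macrophage markers summed to 1682 to 6394 CPM (counts scaled to library size) in contralateral veins and 10009 to 30522 CPM in early AVFs, where 5 of 7 were called higher. Fibroblast markers summed to 16449 to 42514 CPM in contralateral veins and 3414 to 37981 CPM in early AVFs, where 3 of 7 (*Dcn*, *Lum*, and *Dpt*) were called lower, the other 4 were not called, and the median log2 fold change of the list was -0.22. Markers of smooth muscle (5 of 7) and endothelium (5 of 7) were also lower, and those of neutrophils (5 of 6) and skeletal muscle (6 of 6) were higher. Thyroid and parathyroid markers exceeded 1000 CPM in 3 libraries (early AVF 1, mid AVF 12, late AVF 19), and hepatocyte markers summed to no more than 3.48 CPM in any library. In these bulk samples, fewer cells of a type and less RNA per cell cannot be told apart.

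The 9 genes moved in opposite directions soon after surgery. In early AVFs the 3 C1q chains rose, *C1ra*, *C1s1*, *C3*, *C7*, and *Serping1* fell, and *C4b* was not called. A gene was called when its adjusted *p* in edgeR's quasi-likelihood test was under 0.01 and its log2 fold change was at least 1 in size. By this rule 3 members were higher, beside 6.17% of all genes tested, and 5 were lower, beside 6.45% of all genes tested. The members' median log2 fold change was -1.59, against -0.01 over all genes tested. The separation was complete for 7 members: every early AVF lay above every contralateral vein for *C1qb* and *C1qc* (4.47% of all genes did so), and below for *C1ra*, *C1s1*, *C3*, *C7*, and *Serping1* (2.34% of all genes). In female mice alone (5 veins, 3 AVFs) no member was called, with 327 genes called in all, and in male mice alone (2 veins, 5 AVFs) 4 members were called, with 1072 genes in all. The log2 CPM values of each library are shown in the plot of the 9 genes by group.

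**Figure D1:**
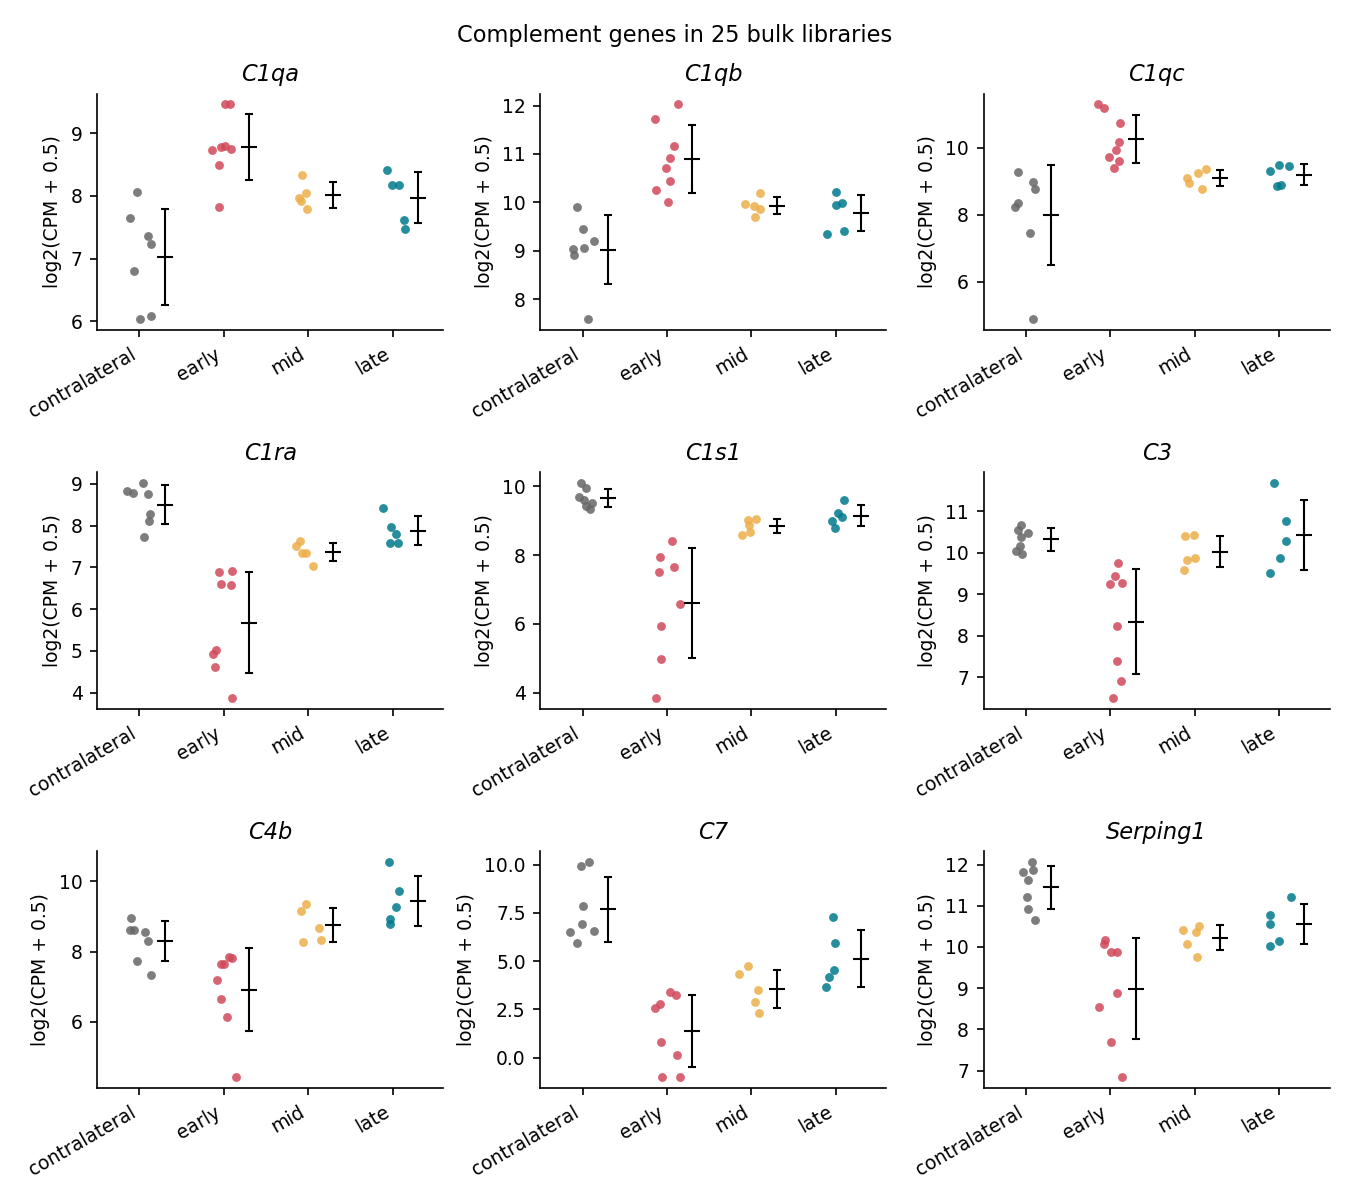
Log2(CPM + 0.5) of each complement gene (vertical axis) in contralateral veins (n = 7), early AVFs (n = 8), and 5 AVFs each of the mid and late groups. Each point is 1 bulk library. The C1q chains sit highest in early AVFs, the other 6 genes sit lowest there, and C7 stays below every contralateral vein at mid.

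The C1q chains lie side by side on chromosome 4 of GRCm38, all on the minus strand: *C1qb* at chr4:136880129-136886187, *C1qc* at chr4:136889804-136893065, and *C1qa* at chr4:136895917-136898803. Because the 3 genes are neighbors and rose together, the RefSeq promoter sequences (GRCm38.p6) of the chains that matched are shown, read 5′ to 3′ up to the base before the earliest annotated start. The *C1qb* window is chr4:136886201-136886450, and the *C1qc* window, which is shorter because the annotated starts lie apart, is chr4:136893066-136893164, both on the minus strand. Capitals mark matches to GAGGAA, the core bound by PU.1 and other ETS factors, read on either strand.
C1qb: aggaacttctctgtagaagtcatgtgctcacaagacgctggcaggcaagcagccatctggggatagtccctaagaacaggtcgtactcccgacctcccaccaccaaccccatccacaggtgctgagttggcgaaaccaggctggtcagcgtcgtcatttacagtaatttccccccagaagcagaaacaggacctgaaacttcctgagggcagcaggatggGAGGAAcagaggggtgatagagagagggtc
C1qc: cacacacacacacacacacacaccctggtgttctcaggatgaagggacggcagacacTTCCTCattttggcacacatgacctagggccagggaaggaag
Counted back from the start, the match in *C1qb* spanned bases -30 to -25, and that in *C1qc*, on the opposite strand as TTCCTC, spanned bases -42 to -37. GAGGAA was present in 23.3% of the 32851 promoter windows when cut to 250 bases and in 9.91% when cut to 99 bases, so a match is common. Searches on both strands for TTCNNNGAA and for GAAA followed, after any 2 bases, by another GAAA gave no match in either C1q window. Of the 9 members, 6 matched a promoter entry.

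*C1qa* encodes the A chain. In contralateral veins it ranged from 65.1 to 265 CPM (median 149.9, n = 7), and in early AVFs from 225 to 703 CPM (median 432, n = 8). It was 221, 240, 251, 264, and 323 CPM in mid AVFs and 178, 195, 287, 289, and 341 CPM in late AVFs. The lowest early library, AVF 7, overlapped with the highest contralateral vein, and every mid and late library lay below the early median. Its log2 fold change was 1.67 ± 0.28 (SE) at the early time point, with an adjusted *p* of 8.84e-05 by edgeR. At mid and late the log2 fold changes were 0.83 and 0.82, with adjusted *p* of 0.0740 and 0.0801 by edgeR, so neither was called.

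*C1qb*, the B chain, was the most abundant of the 3 per kilobase of exon in every group. Contralateral veins ranged from 191 to 954 CPM (median 534), and early AVFs from 1025 to 4177 CPM (median 1800). Mid AVFs held 832, 929, 978, 996, and 1173 CPM, and late AVFs 654, 682, 985, 1011, and 1182 CPM. AVFs 5 and 6 were highest, and no early library fell to the level of a contralateral vein. The early log2 fold change was 1.91 ± 0.30 (SE; adjusted *p* = 3.46e-05, edgeR), and those at mid and late were 0.79 and 0.67 (adjusted *p* = 0.110 and 0.193, edgeR).

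*C1qc* behaved similarly. It ranged from 28.9 to 616 CPM in contralateral veins (median 327) and from 670 to 2535 CPM in early AVFs (median 1077), then stood at 438 to 660 CPM in mid AVFs and 462 to 720 CPM in late AVFs. The early log2 fold change was 2.02 ± 0.40 (SE; adjusted *p* = 0.000548, edgeR), and those at mid and late were 0.70 and 0.81 (adjusted *p* = 0.324 and 0.247, edgeR). The mean of each chain was highest early and lowest in contralateral veins. Mid and late AVFs overlapped with each other and with contralateral veins for all 3 chains, and with early AVFs except for *C1qc*, where every mid AVF lay below every early one (as for 5.20% of all genes, adjusted *p* = 0.0983, edgeR). The 3 early calls held when any 1 library was left out, but none held in female or male mice alone.

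The single-cell libraries place these transcripts. Cells were clustered without the complement genes and named from marker genes, which gave 720 macrophages and monocytes in contralateral veins (11.4% of 6319 cells), 1912 in early AVFs (40.2% of 4753), and 1589 in late AVFs (27.3% of 5821). These cells held 92.2%, 96.5%, and 93.0% of all C1q unique molecular identifiers (UMIs) in the 3 libraries. Their number depended on the settings: at resolution 1.0 it was 746, 2288, and 1831. With a looser filter on cells it was 1023, 2259, and 1834. Levels per macrophage UMI given below are those of the main clustering. Over all cells, *C1qb* stood at 2.60 UMIs per 10000 in contralateral veins, 14.1 in early AVFs, and 5.76 in late AVFs. This was the same order as in bulk tissue, whose early and late AVFs were harvested earlier on average. There was 1 library per condition, so no test was possible, library and condition cannot be told apart, and the 95% intervals given for single-cell values cover counting error only.

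Per UMI within macrophages and monocytes, the chains did not share 1 direction. *C1qa* stood at 31.7, 23.1, and 21.7 UMIs per 10000 in contralateral veins, early AVFs, and late AVFs, a ratio of early to contralateral of 0.729 (95% interval 0.714 to 0.744). *C1qc* stood at 21.4, 14.7, and 13.6, a ratio of 0.684 (0.667 to 0.701). *C1qb* stood at 20.5, 26.6, and 22.1, a ratio of 1.30 (1.27 to 1.33). The A and C chains were thus lower per macrophage UMI in the early library than in contralateral veins, although their share of all UMIs was higher. *C1qb* made up 27.8% of C1q UMIs in contralateral macrophages and 41.3% in early ones. Cells with a UMI of all 3 chains were 61.8%, 71.8%, and 81.5% of macrophages and monocytes, and cells with none were 10.6%, 10.2%, and 5.16%, with depths that differed between libraries (median 2751, 8951, and 15425 UMIs over all cells). Thinned to 1000 UMIs per cell, cells with a *C1qa* UMI were 78.5%, 62.3%, and 68.4%, against 80.6%, 79.4%, and 87.7% before thinning. Erythroid cells, which should lack *C1qa*, had a UMI in 13.5% of 846 cells, 19.4% of 144, and 22.2% of 9, below the macrophage shares, and the last value rests on 9 cells (95% interval, exact Clopper-Pearson, 2.81% to 60.01%).

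The macrophages themselves differed. Most contralateral ones (646 of 720) fell in 1 cluster led by *F13a1*, *Cd209f*, *Mrc1*, and *Cd163*, whereas most early and late ones fell in 2 other clusters. When this lineage was clustered again, *C1qa* stood at 9.70 UMIs per 10000 in monocyte-like cells. It stood at 37.5 in a resident-like subcluster of 400 cells, 391 of them contralateral, with 7 resident markers raised. Hemoglobin genes made up 4 of the 10 leading genes of that subcluster, beside *Cd209f* and *Cd163*. Inflammatory-like cells formed 2 groups with values of 36.7 and 9.72. The first was named on weaker grounds, with 3 inflammatory markers raised and a mean log2 fold of 1.16 over the list. The second had 6 raised and a mean of 3.79. Of the 10 leading genes, 2 were inflammatory markers in the first group and 4 in the second. The group with the higher value had 843 cells in the early library, which held 46950 of the 65879 *C1qa* UMIs of early macrophages and monocytes. Their levels were 35.98 *C1qa* and 39.7 *C1qb* UMIs per 10000, against 37.4 and 22.5 in contralateral resident-like cells and 10.1 and 13.4 in early monocyte-like cells.

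*C1ra* and *C1s1*, which encode the proteases activated by C1q, lie next to each other on chromosome 6 (chr6:124512405-124523443, plus strand, and chr6:124530345-124542359, minus strand). The *C1s1* window, chr6:124542360-124542609 on the minus strand, is printed because it held none of the 3 motifs searched, unlike those of the C1q chains.
C1s1: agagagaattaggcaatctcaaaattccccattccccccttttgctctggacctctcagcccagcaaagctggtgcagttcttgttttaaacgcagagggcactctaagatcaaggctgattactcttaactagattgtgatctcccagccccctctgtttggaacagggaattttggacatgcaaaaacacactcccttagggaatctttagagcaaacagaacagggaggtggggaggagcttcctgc
The *C1ra* entry covered only 34 bases and also held no match, nor did the 250 bases of *C3*. The absence says only that these letters are not in these windows.

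*C1ra* ranged from 213 to 517 CPM in contralateral veins (median 430) and from 14.1 to 121 CPM in early AVFs (median 63.7). It was 131, 163, 163, 181, and 197 CPM in mid AVFs and 192, 192, 221, 251, and 344 CPM in late AVFs. Early and mid AVFs lay below every contralateral vein, and late AVFs overlapped with the lower veins. The early log2 fold change was -2.51 ± 0.37 (SE; adjusted *p* = 1.38e-05, edgeR). At mid it was -1.18 (adjusted *p* = 0.0633, edgeR) and at late -0.65 (adjusted *p* = 0.344, edgeR), neither of them called.

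*C1s1* ranged from 648 to 1092 CPM in contralateral veins (median 779) and from 13.8 to 340 CPM in early AVFs (median 138). Mid AVFs held 385, 405, 474, 519, and 531 CPM, and late AVFs 440, 509, 555, 602, and 778 CPM. AVFs 5, 6, and 7, the libraries with the lowest fibroblast markers, were also the lowest for both proteases. The early log2 fold change of *C1s1* was -2.50 ± 0.42 (SE; adjusted *p* = 8.34e-05, edgeR), and those at mid and late were -0.83 and -0.51 (adjusted *p* = 0.274 and 0.540, edgeR).

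*Serping1*, which encodes the inhibitor of both proteases (chr2:84765387-84775444, minus strand), was the most abundant member per kilobase of exon in contralateral veins. It ranged from 1623 to 4254 CPM there (median 3175) and from 114 to 1141 CPM in early AVFs (median 702), with no overlap. Mid AVFs held 863, 1078, 1318, 1352, and 1466 CPM, again below every contralateral vein, and late AVFs 1041, 1139, 1506, 1760, and 2386 CPM. The early log2 fold change was -2.17 ± 0.37 (SE; adjusted *p* = 9.53e-05, edgeR), and those at mid and late were -1.28 and -0.91 (adjusted *p* = 0.0464 and 0.169, edgeR). For the proteases and their inhibitor, the order of the groups was therefore the same, with early lowest and contralateral highest, and mid and late overlapped.

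In the single-cell libraries, the 6 members other than C1q were mainly fibroblast transcripts, with 94.2%, 83.1%, and 94.7% of their UMIs in fibroblasts of the contralateral, early, and late libraries. Fibroblasts were 29.6% of cells in contralateral veins (1870 cells), 8.42% in early AVFs (400 cells), and 33.1% in late AVFs (1927 cells). The early count depended on the settings: it was 762 of 4753 cells at resolution 1.0 and 1125 of 6126 with a looser filter on cells. Contralateral and late counts at resolution 1.0 were 1899 and 2244, and 15.7% of early cells were left unnamed in the main clustering. Per 10000 fibroblast UMIs, *C1ra* stood at 4.75, 2.89, and 5.89, *C1s1* at 9.21, 5.21, and 10.4, and *Serping1* at 27.3, 19.5, and 30.9. The early library was thus lowest in the share of fibroblasts and per fibroblast UMI. The ratio of early to contralateral was 0.608 (95% interval 0.583 to 0.634) for *C1ra*, 0.566 (0.549 to 0.584) for *C1s1*, and 0.713 (0.701 to 0.725) for *Serping1*, less far from 1 than the ratios over all cells, where *Serping1* went from 12.6 to 4.38 UMIs per 10000. The early values moved with the filter on cells: with a looser one, which left 1125 early fibroblasts, *C1ra* was 1.62, *C1s1* 2.92, and *Serping1* 12.2. The clusters also differed, since contralateral fibroblasts were mostly 1 cluster (1743 cells) and early and late ones another (396 and 1874 cells).

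**Figure D2:**
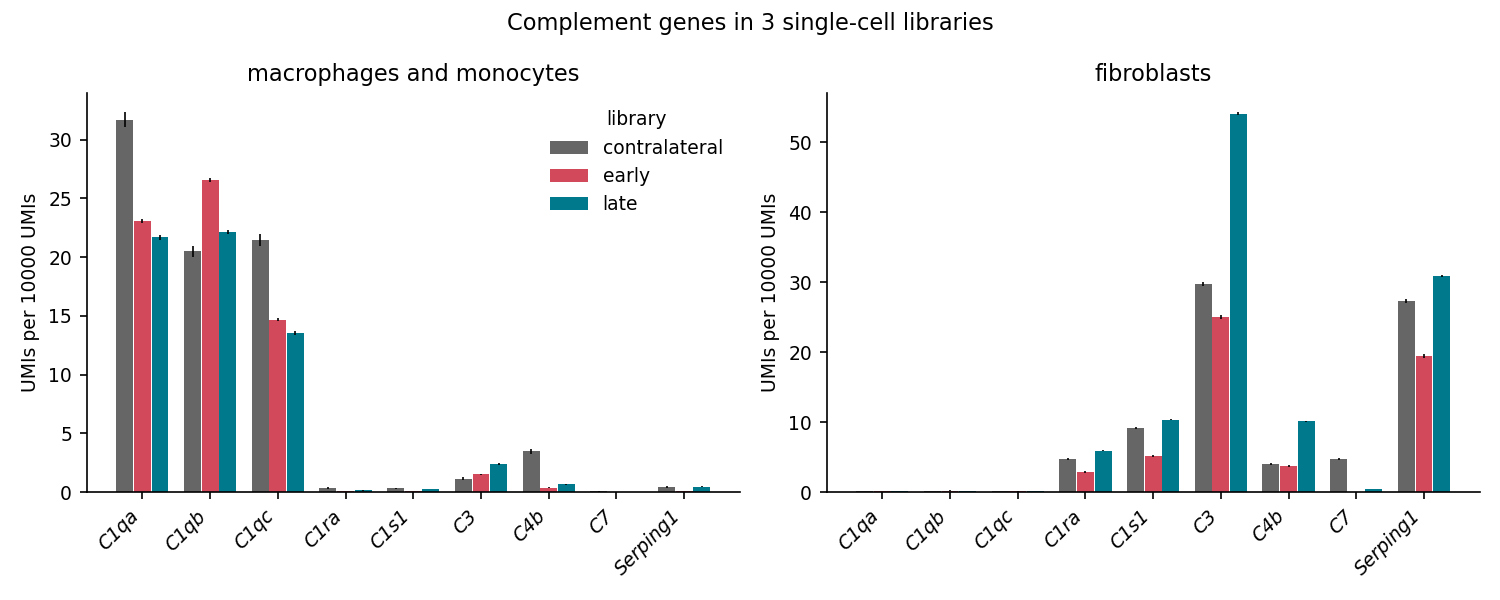
UMIs of each complement gene per 10000 UMIs (vertical axis, linear from 0) in macrophages and monocytes and in fibroblasts of 3 single-cell libraries, with 95% Poisson intervals that cover counting error only. In macrophages C1qb is highest in the early library and C1qa and C1qc in the contralateral library. In fibroblasts C3 and C4b are highest in the late library and C7 in the contralateral one.

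*C3*, the central component that all pathways cleave (chr17:57203970-57228136, minus strand), fell early and rose again from early to late AVFs. It ranged from 996 to 1639 CPM in contralateral veins (median 1326) and from 89.6 to 867 CPM in early AVFs (median 453), without overlap. Mid AVFs held 764, 910, 937, 1359, and 1385 CPM, and late AVFs 732, 939, 1249, 1732, and 3272 CPM. Late AVF 17 was well above the other libraries, and both later groups overlapped with contralateral veins. The early log2 fold change was -1.59 ± 0.39 (SE; adjusted *p* = 0.00412, edgeR), and the adjusted *p* rose to 0.0134 without early AVF 3 and 0.0109 without early AVF 5. At mid and late the log2 fold changes were -0.28 and 0.29 (adjusted *p* = 0.759 and 0.745, edgeR), and the late value was -0.12 without AVF 17.

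*C4b* encodes C4, the substrate of C1s (chr17:34728380-34743882, minus strand). It ranged from 161 to 497 CPM in contralateral veins (median 378) and from 20.8 to 227 CPM in early AVFs (median 172), which overlapped. Mid AVFs held 311, 320, 410, 570, and 661 CPM, and late AVFs 440, 485, 615, 841, and 1498 CPM. Every late AVF lay above 6 of the 7 contralateral veins, and AVF 17 was highest, as for *C3*. The log2 fold change was -1.17 ± 0.37 (SE; adjusted *p* = 0.0219, edgeR) at the early time point and 1.21 ± 0.41 (SE; adjusted *p* = 0.0563, edgeR) at the late one, and it was not called at any time point. *C3* and *C4b* were the members with their highest group mean in late AVFs.

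Late fibroblasts held more *C3* and *C4b* than those of the other libraries. *C3* stood at 29.7, 25.01, and 54.1 UMIs per 10000 fibroblast UMIs in contralateral veins, early AVFs, and late AVFs, a ratio of late to contralateral of 1.82 (95% interval 1.80 to 1.84). *C4b* stood at 3.98, 3.73, and 10.1, a ratio of 2.54 (2.47 to 2.61). Within fibroblasts the levels were uneven: over the 3 libraries, *C3* ranged from 3.62 to 82.5 UMIs per 10000 among 13 subclusters, and the subclusters with the highest *C3* (82.5 and 69.4) also had the highest *C4b* (13.2 and 12.8). With the looser filter, early fibroblasts held 11.4 *C3* and 1.73 *C4b* UMIs per 10000.

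Both genes were also detected outside fibroblasts. *C4b* in macrophages and monocytes stood at 3.47 UMIs per 10000 in contralateral veins, 0.384 in early AVFs, and 0.663 in late AVFs, a ratio of early to contralateral of 0.111 (95% interval 0.102 to 0.120). A *C4b* UMI was found in 51.2% of contralateral macrophages and monocytes against 5.91% of erythroid cells of the same library. The contralateral resident-like cells, led by *Cd209f* and hemoglobin genes, held 4.37 *C4b* UMIs per 10000 (95% interval 4.11 to 4.64), against 3.98 (3.88 to 4.10) in fibroblasts of that library. Schwann cells held 0.996 in contralateral veins (395 cells), 6.81 in early AVFs (11 cells), and 4.23 in late AVFs (24 cells). *C3* in macrophages and monocytes was 1.15, 1.53, and 2.39 UMIs per 10000. Late neutrophils (5.24) and T and NK cells (5.53) held more *C3* than late macrophages and monocytes, whose value could thus not be separated from free RNA. The contralateral and early values of macrophages and monocytes were lower still.

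*C7*, a component of the terminal complex (chr15:4988762-5063740, minus strand), had the largest decrease of the 9. Its RefSeq promoter window, chr15:5063774-5064023 on the minus strand, is printed because it was the only member window with a match to TTCNNNGAA, the core bound by STAT factors, shown in capitals.
C7: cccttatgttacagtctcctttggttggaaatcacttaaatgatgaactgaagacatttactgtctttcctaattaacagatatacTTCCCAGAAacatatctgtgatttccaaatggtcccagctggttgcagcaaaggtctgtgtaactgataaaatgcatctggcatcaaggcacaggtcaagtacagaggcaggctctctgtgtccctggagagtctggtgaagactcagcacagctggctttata
The match, TTCCCAGAA, spanned bases -164 to -156, and 7.02% of all promoter windows of 250 bases held such a match.

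*C7* ranged from 60.4 to 1110 CPM in contralateral veins (median 121) and from 0 to 9.97 CPM in early AVFs (median 3.37). Early AVFs 5 and 6 had 0 reads, which allows up to 0.0583 and 0.0809 CPM, and the other 6 had 13 to 281 reads. Mid AVFs held 4.58, 6.92, 10.8, 19.8, and 26.4 CPM, and late AVFs 12.3, 17.6, 22.9, 61.5, and 156 CPM. Early and mid AVFs lay below every contralateral vein, and 2 late AVFs overlapped with the female veins. The contralateral spread split by sex, with 60.4 to 233 CPM in the 5 females and 956 to 1110 CPM in the 2 males. The males were also the veins numbered 632 and 633, against 27 to 35 for the females, so sex cannot be told apart from that difference. Means were not higher in males at mid (12.2 against 14.7 CPM in females) or late (15.0 against 80.2 CPM). The log2 fold change was -6.54 ± 1.10 (SE; adjusted *p* = 7.80e-05, edgeR) at the early time point, -4.80 ± 1.24 (SE; adjusted *p* = 0.0105, edgeR) at mid, and -2.81 ± 1.12 (SE; adjusted *p* = 0.105, edgeR) at late. In single cells, *C7* stood at 4.77 UMIs per 10000 fibroblast UMIs in contralateral veins (6194 UMIs), 0.0536 in early AVFs (61 UMIs), and 0.488 in late AVFs (2396 UMIs). The ratio to contralateral fibroblasts was 0.0112 (95% interval 0.00857 to 0.0144) early and 0.102 (0.0975 to 0.107) late, so *C7* was lower per fibroblast UMI as well as in bulk tissue. Early macrophages and monocytes had 0 *C7* UMIs, which allows up to 0.00105 per 10000.

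**Figure D3:**
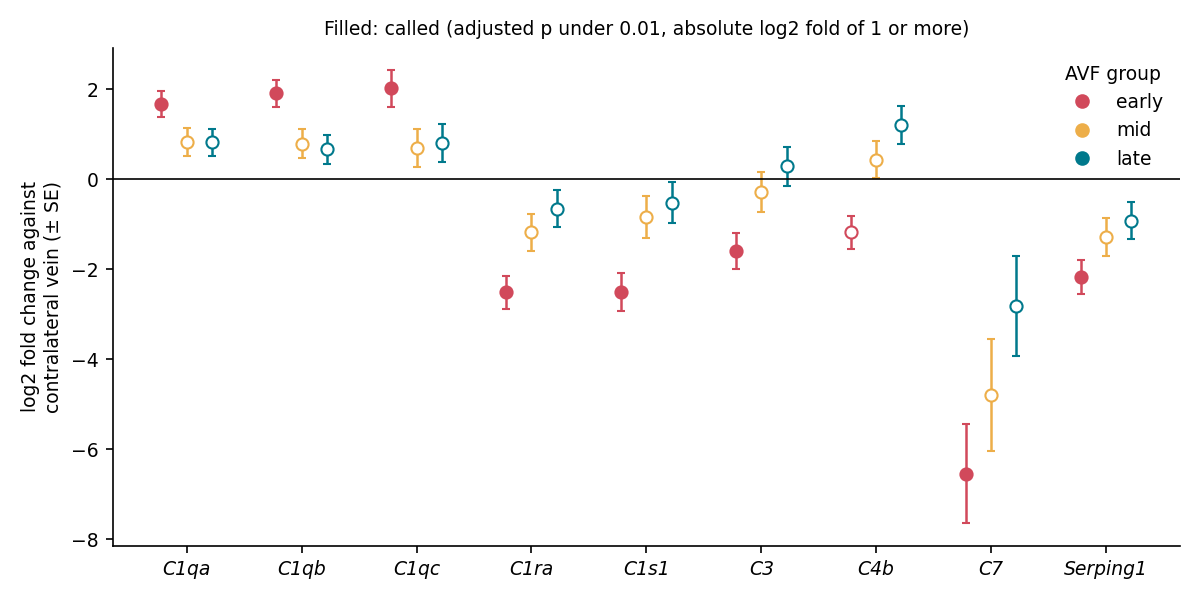
Log2 fold change against contralateral veins (vertical axis, bars show the SE) of the 9 complement genes in early, mid, and late AVFs, from edgeR on 25 bulk libraries. Filled symbols mark called genes. The 8 filled symbols are all early, and C7 has the lowest values, from -6.54 early to -2.81 late.

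None of the 9 was called at mid or late by edgeR, where 2.74% of all genes tested were called higher and 3.31% lower at mid, and 2.49% higher and 2.85% lower at late. At an unadjusted *p* under 0.05 there were 5 members at each of these times, beside 3278 of 12673 genes at mid and 3148 at late (*C1qa*, *C1qb*, *C1ra*, *C7*, and *Serping1* at mid, and *C1qa*, *C1qb*, *C4b*, *C7*, and *Serping1* at late). DESeq2's Wald test called 1 member and 1418 genes in all at mid, and 0 members and 1294 genes at late. The comparisons with contralateral veins share the same 7 veins, so they are not independent of each other. *C1ra*, *C1s1*, *C7*, and *Serping1* were below every contralateral vein in all 5 mid AVFs, beside 4.69% of all genes.

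From early to late AVFs, *C1ra*, *C1s1*, *C3*, and *C4b* rose, with 4 members called higher beside 0.726% of all genes tested. The log2 fold changes were 1.86 ± 0.39 (SE) for *C1ra*, 1.98 ± 0.44 for *C1s1*, 1.88 ± 0.42 for *C3*, and 2.39 ± 0.40 for *C4b*. Their adjusted *p* by edgeR were 0.00428, 0.00580, 0.00648, and 0.00149. All late AVFs lay above all early ones for *C1ra*, *C1s1*, *C4b*, and *C7* (7.16% of all genes did so), while *C3* overlapped. *C7* changed by 3.73 ± 1.00 on the log2 scale (SE; adjusted *p* = 0.0211, edgeR) and *C1qb* by -1.24 (adjusted *p* = 0.0196, edgeR), neither of them called. These calls were lost when single libraries were left out, and the calls over all genes (381 in either direction with all libraries) fell at the same time. Without late AVF 17 no member and 34 genes in all were called. Without late AVF 16, 19, or 24 or early AVF 5 there was 1 member, beside 32, 40, 41, and 156 genes, and without early AVF 3 or late AVF 23 there were 2, beside 186 and 151 genes. *C4b* lost its call only without AVF 17 (adjusted *p* = 0.0120) among these, and in female or male mice alone no member was called, beside 0 and 2 genes in all.

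From early to mid AVFs no member was called, beside 0.00789% of all genes (1 gene), although 8 of the 9 had an unadjusted *p* under 0.05, beside 1614 of 12673 genes, and DESeq2's Wald test called 2 members and 474 genes in all. *C1ra*, *C1s1*, and *C4b* were above every early AVF in all 5 mid AVFs, beside 3.31% of all genes, with log2 fold changes of 1.33, 1.67, and 1.61 (adjusted *p* = 0.0457, 0.0276, and 0.0196, edgeR). Between mid and late AVFs edgeR called 0 members and 0 genes in all, 39 genes had an unadjusted *p* under 0.05, and no member was among them.

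The balance of recognition molecule to proteases shifted most in the early libraries. The summed CPM of the 3 C1q chains over that of *C1ra* and *C1s1* was 0.376 to 1.69 in contralateral veins (median 0.925), 5.19 to 237 in early AVFs (median 23.9), 2.35 to 3.80 in mid AVFs (median 2.92), and 1.85 to 2.57 in late AVFs (median 2.13). Every AVF was therefore above every contralateral vein, and no mid or late AVF reached the early range. Both terms moved: the C1q sum had medians of 1127, 3309, 1731, and 1908 CPM in contralateral, early, mid, and late libraries, and the protease sum medians of 1218, 201, 636, and 776 CPM. The inhibitor over its targets, *Serping1* to *C1ra* plus *C1s1*, had medians of 2.61, 3.72, 1.89, and 1.94, a much smaller change.

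**Figure D4:**
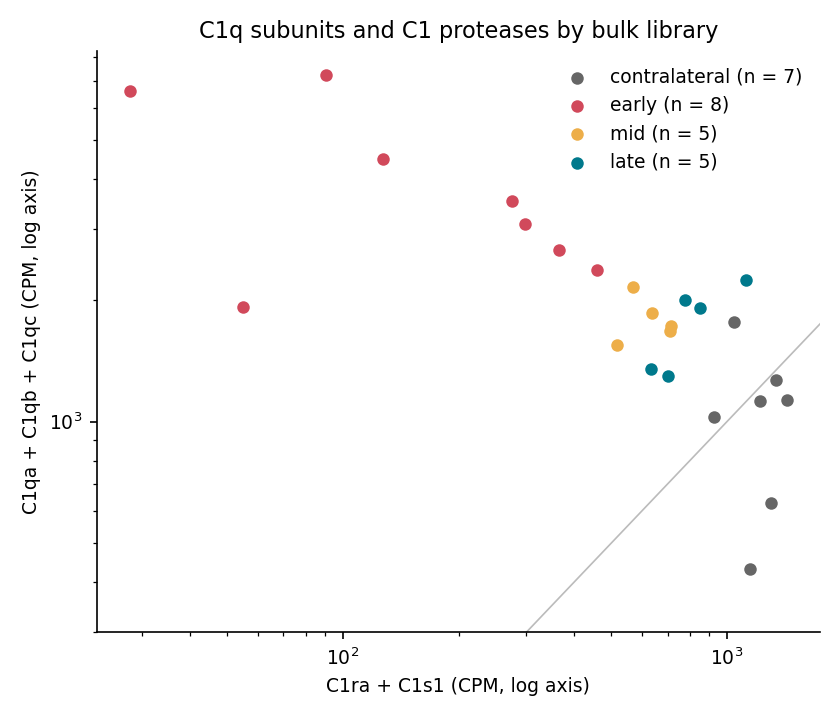
Summed CPM of C1qa, C1qb, and C1qc (vertical log axis) against summed CPM of C1ra and C1s1 (horizontal log axis) in 25 bulk libraries, 1 point each, with the line of equal sums. Early AVFs sit at the upper left, with ratios from 5.19 to 237, contralateral veins lie around the line, and mid and late AVFs lie between them.

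Levels were also set against markers of the cells that held these transcripts. A sum of 6 macrophage markers (*Adgre1*, *Csf1r*, *Cd68*, *Fcgr1*, *Mrc1*, and *Ms4a7*) had medians of 719, 2512, 1640, and 1563 CPM in contralateral, early, mid, and late libraries, and the C1q sum divided by them had medians of 1.19, 1.32, 1.17, and 1.17. This sum left out *Lyz2*, and the whole list of 7 had medians of 3994, 21269, 11439, and 10516 CPM. The C1q sum had medians of 1127, 3309, 1731, and 1908 CPM, so it rose less than the whole list in every AVF group. The whole list of 7 fibroblast markers (*Pdgfra*, *Dcn*, *Lum*, *Dpt*, *Col1a1*, *Col1a2*, and *Col3a1*) had summed medians of 35974, 23331, 49907, and 39368 CPM, and its median log2 fold changes against contralateral veins were -0.22, 0.24, and 0.29. Per 1000 CPM of these 7, *C1ra* had medians of 12.2, 3.41, 3.59, and 5.62, *C1s1* 27.8, 7.32, 10.1, and 13.04, and *Serping1* 98.7, 33.9, 25.7, and 35.3, so that all 3 had lower medians in every AVF group. *C3* had medians of 34.4, 20.02, 23.3, and 31.7, *C4b* 8.89, 7.35, 8.54, and 15.6, and *C7* 4.75, 0.212, 0.189, and 0.522. These ratios depended on the markers chosen. The 4 markers that are not collagen genes, which include the 3 called lower early, had summed medians of 15124, 2415, 6945, and 8352 CPM. Per 1000 CPM of these 4, *C1ra* had medians of 25.8, 19.5, 23.5, and 28.4, *C1s1* 58.6, 47.6, 68.4, and 68.4, and *Serping1* 212, 231, 189, and 187. Over the same 4, *C3* (86.5, 133, 135, and 155) and *C4b* (19.4, 54.4, 59.2, and 76.5) had higher medians in every AVF group, unlike over the 7, and *C7* (7.99, 1.31, 1.44, and 2.64) had lower medians over both. These ratios are descriptions, and the part of cell numbers in each change was not tested.

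The order of abundance also turned over. Per kilobase of exon, mean levels in contralateral veins were highest for *Serping1* (1268 CPM per kilobase) and then *C1qb* (521), *C1s1* (263), and *C3* (252), with *C4b* last (58.8). In early AVFs *C1qb* was first (1962), followed by *C1qc* (717), *C1qa* (447), and *Serping1* (282), and *C7* was last (1.53). Late AVFs again had *C1qb* (829.6) and *Serping1* (674) first and *C7* last (20.2). Many neighbors in these orders, such as *C1s1* and *C3* in contralateral veins, differed by less than their spread.

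No interaction with sex was detected for any member. The interaction of sex with time point had an adjusted *p* of 1 for all 9 members by edgeR, with 13 genes called at 0.05 over all genes, and an unadjusted *p* of 0.0490 for *C4b*. Late *C3* was 1249 to 3272 CPM in 3 females and 732 to 939 CPM in 2 males, and late *C4b* was 615 to 1498 CPM in females and 440 to 485 CPM in males. The contralateral, mid, and late groups held 2 males each, so differences of this size may not be detectable with these libraries.

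Of 45 other complement pathway genes, 26 had enough counts to be tested, and in early AVFs 6 were higher, 7 were lower, and 13 were not called. Over all genes tested, 6.17% were called higher and 6.45% lower. The median log2 fold change of these 26 was -0.51, against -0.01 over all genes tested. The higher ones were mostly receptors on leukocytes, with 5 of the 8 receptor genes tested. *C3ar1*, the receptor for the C3a fragment, had the largest change: it ranged from 0.187 to 56.4 CPM in contralateral veins (median 32.2) and from 361 to 1138 CPM in early AVFs (median 569), a log2 fold change of 4.60 (adjusted *p* = 5.15e-06, edgeR). *C5ar1*, the C5a receptor, changed by 2.99, and *Itgam* and *Itgb2*, the chains of complement receptor 3, by 2.58 and 2.09 on the log2 scale. *Cd93* changed by 1.61, and *Cfp*, which encodes properdin, the stabilizer of the alternative pathway convertase, by 1.82. *C3ar1* was the only one of these still called at mid (3.29) and late (2.96).

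The lower genes included regulators, with *Cd55*, *Cd59a*, *Vtn*, and *Serping1* making 4 of the 9 regulator genes tested, beside 6.45% of all genes tested. *Cd59a*, an inhibitor of the terminal complex, ranged from 253 to 712 CPM in contralateral veins (median 509) and from 39.5 to 185 CPM in early AVFs (median 67.5), with no overlap. Its log2 fold changes were -2.55 (adjusted *p* = 9.84e-07, edgeR), -3.09, and -2.64 in early, mid, and late AVFs, called at each time. Those of *Vtn*, which encodes vitronectin, were -3.51, -2.65, and -2.60, also called at each time. The other genes that fell early were *Cd55* (-1.64), *C2* (-3.48), *Cfd* (-1.93), *Masp1* (-2.31), and *Colec11* (-4.27), the last 2 of the lectin pathway, and *C2* was also lower at mid (-2.71).

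**Figure D5:**
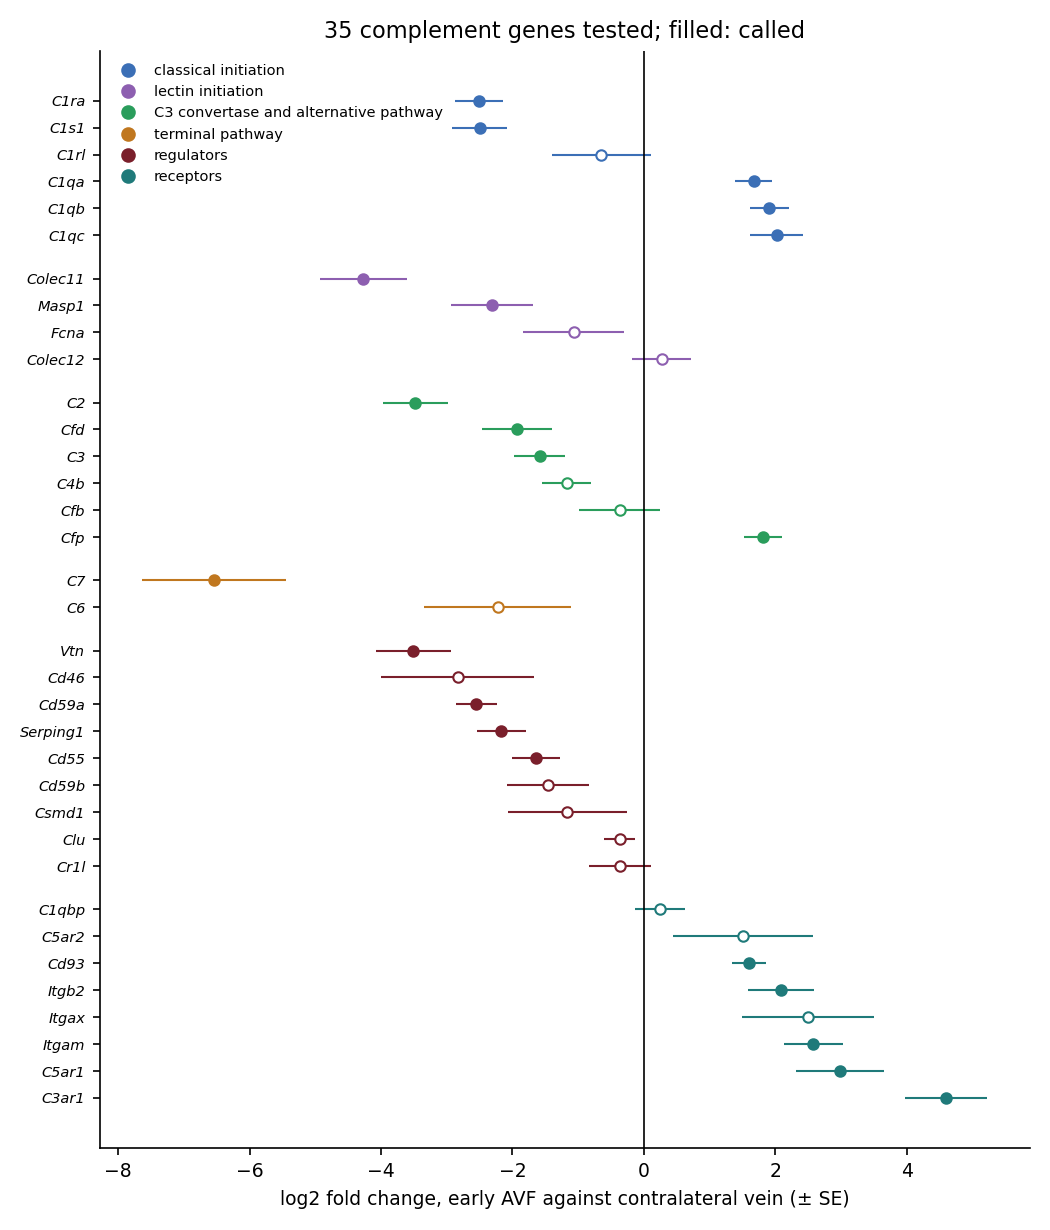
Log2 fold change of early AVFs against contralateral veins (horizontal axis, bars show the SE) for 35 complement genes tested in bulk libraries, colored by role. Filled symbols mark called genes, 9 of them higher and 12 lower, beside 6.17% and 6.45% of all genes tested. Receptors lie on the right and regulators on the left.

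Single cells put these genes in other lineages. *C3ar1* was found in macrophages and monocytes at 3.65, 3.26, and 3.59 UMIs per 10000 in contralateral veins, early AVFs, and late AVFs, with at most 0.255 in neutrophils. *C5ar1* stood at 3.97, 2.78, and 2.91 in macrophages and monocytes and at 4.28, 5.86, and 5.48 in neutrophils. *Cfp* in macrophages and monocytes was 4.13, 4.07, and 3.18. None of these had a higher level per macrophage UMI in AVFs. *Cd59a* was 1.13, 0.522, and 0.264 in endothelial cells and 0.896, 1.10, and 0.952 in smooth muscle cells and pericytes, which were only 36 cells in contralateral veins. *C2*, a fibroblast transcript, was 5.39, 1.07, and 2.21 in that lineage.

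The genes with the most similar pattern over the 25 bulk libraries included the macrophage markers *Lyz2*, *Cd68*, and *Ms4a7* for C1q. They included the fibroblast marker *Dcn* for *C1s1* and *Serping1*. The closest genes by Spearman's rho of log2 CPM were *C1qb* (0.955), *Lyz2* (0.937), and *Clec4a1* (0.918) for *C1qa*, *Cd68* (0.959), *Ms4a7* (0.955), and *C1qa* for *C1qb*, and *C1qb* (0.920), *Emp3* (0.918), and *Alox5ap* (0.909) for *C1qc*. For *C1s1* they were *Dcn* (0.982), *Ecm2* (0.973), and *Gsn* (0.963), for *C1ra* *Gdf10* (0.965), *Ecm2* (0.955), and *Aldh2* (0.951), and for *Serping1* *Selenbp1* (0.949), *Dcn* (0.948), and *C1s1* (0.943). *C7* was closest to *Podn* (0.949), *Selenbp1* (0.938), and *Cpq* (0.935). The values were lower for *C3*, with *Serping1* (0.889), *C1qtnf1* (0.880), and *C1ra* (0.875), and for *C4b*, with *Scara5* (0.865), *Cmtm6* (0.857), and *Hr* (0.855). These libraries share the group means, so the values describe the 25 libraries and were not tested. With group means removed, Pearson's correlations of these pairs ranged from 0.413 (*C4b* with *Hr*) to 0.937 (*C1s1* with *Dcn*). Among the low ones were *C1qb* with *Ms4a7* (0.422) and *C1s1* with *Gsn* (0.455).

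Near-identical copies could take or lend reads. The mouse paralogs *C1rb*, *C1s2*, and *C4a* had group means of at most 0.406, 2.55, and 1.04 CPM, too low to be tested and far below *C1ra*, *C1s1*, and *C4b*. How reads shared between copies were counted is not known. These values therefore do not limit how uncertain the reads of *C1ra*, *C1s1*, and *C4b* are.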

How the data were processed

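Bulk libraries were made by the study from poly(A) RNA with an ultra-low-input protocol and sequenced in pairs on a HiSeq X. The authors deposited raw read counts per gene, without normalization, for 25 vessels. Single-cell libraries were made with 10x 3′ v3 chemistry, and their UMI counts by gene and barcode were deposited as written by Cell Ranger (6.0.2, per the file headers). STAR and the builds mm10 and GRCm38 are named in the submitters' processing notes, and the counter of the bulk reads is not given in the sources used here. Groups and sex came from the deposited labels, and no column of the bulk table was left unmapped. Labels do not say which vessels share a mouse, so *p* values measure the spread between these libraries.

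Gene symbols came from the single-cell gene lists or the GENCODE annotation of GRCm38. The test covered 12673 genes whose counts, normalized by DESeq2, averaged 100 or more. edgeR 4.0.16 in R 4.3.3 fitted a quasi-likelihood model with TMM scaling and a mean per group to all 25 libraries (common dispersion 0.710), with Benjamini-Hochberg adjustment over all genes tested. CPM are TMM-scaled, and CPM per kilobase used exon lengths. DESeq2 1.42.0 and a likelihood ratio test were alternatives. The script was tested on simulated data.

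A barcode was kept if 200 to 6000 genes were detected and mitochondrial UMIs did not exceed 10%, which left 16893 of 26438, and libraries shared 14 to 19 barcodes. Cells were clustered with scikit-learn 1.9.0, igraph 0.11.9, and leidenalg 0.10.2 (2000 variable genes without complement and marker genes, 12 components, 20 neighbors, resolution 0.5). A class needed at least 3 markers, and this naming rule was settled after cluster names had been seen. A class name with "-like" marks a subcluster. Unnamed cells (198, 748, and 566) entered no lineage. Scrublet, run in scanpy 1.11.5, marked 0 of 6319, 2 of 4753, and 120 of 5821 cells, which means that it did not work for contralateral and early libraries, and no cell was removed. Intervals are exact Poisson intervals at 95%, and the limit of a count of 0 is 3 counts.

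The members, gene lists, and tests were chosen with earlier results of these data known. Text names all 9 members, other pathway genes called against contralateral veins at any time point (1 gene of the pathway is not reported here and enters no count), the 3 genes most like each member, and near-identical copies. Alternatives that left out several libraries at once, and the ratios to summed marker genes, were added after seeing the data. Promoter windows came from RefSeq (GRCm38.p6). Human data were not used here.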

Additional observations from a re-analysis of the deposited data

Results flagged for a closer look

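Within groups of 4 to 10 bulk libraries, 2 values stood apart from the rest of their group. *C1qb* in contralateral vein 27 was 191 CPM, the lowest of the 7 veins, with a gap to the next that made up 0.569 of the whole range. *C1qc* in contralateral vein 28 was 28.9 CPM, with a gap of 0.586 of the range, although *C1qb* in the same vein was 534 CPM. The 9 genes in 4 groups gave 36 values to check, and chance flags about 1 in 20 groups, or 1.8 of these. Without both veins, 8 members were called in early AVFs, as with them, beside 1762 genes in all without and 1599 with them.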

How the results depend on the processing

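The count of 8 members called early was 7 to 8 when 1 library was left out (7 without early AVF 3 or 5), 9 under DESeq2's Wald test, 7 with only the 2 groups, and 8 with other scaling, other filters, or sex as a term, but female mice alone gave 0 and male mice alone 4. Over all genes, early calls numbered 1599, and were 2440 (Wald), 632 (only the 2 groups), 1619 (other scaling), and 1391 (sex as a term). They were 3803 (filterByExpr), 3938 (no filter), 1425 and 1370 (without early AVF 3 or 5), and 327 and 1072 (female or male mice). Late against contralateral and late against mid gave 0 members in every alternative run. The former gave 676 genes in all, and 1294 (Wald), 1044 (likelihood ratio), 2696 (filterByExpr), 2567 (no filter), and 1304 (adjusted *p* under 0.05). Mid against contralateral gave 0 members, 1 under DESeq2's Wald test, edgeR's likelihood ratio test, filterByExpr, or no filter, 2 at an adjusted *p* under 0.05 or with only the 2 groups, 0 to 1 when 1 library was left out, 1 without early AVFs 5 and 6, and 1 without contralateral veins 27 and 28. Over all genes, mid against contralateral gave 767, and 1418 (Wald), 1158 (likelihood ratio), 2823 (filterByExpr), 2728 (no filter), 1421 (adjusted *p* under 0.05), and 339 (only the 2 groups). It gave 869 without early AVFs 5 and 6 and 984 without contralateral veins 27 and 28. Mid against early gave 2 under the Wald and likelihood ratio tests, 3 at an adjusted *p* under 0.05, and 0 to 1 when 1 library was left out. Genes in all were 1, and 474 (Wald), 356 (likelihood ratio), 482 (adjusted *p* under 0.05), and 0 to 305 when 1 library was left out. Late against early gave 4, and 2 with filterByExpr or sex as a term, 7 at an adjusted *p* under 0.05, 1 with only the 2 groups, 0 in either sex alone, 0 to 4 when 1 library was left out, 2 without early AVFs 5 and 6, and 1 without the libraries rich in thyroid and parathyroid markers. Genes in all were 381, and 259 (filterByExpr), 315 (sex as a term), 795 (adjusted *p* under 0.05), and 587 (only the 2 groups). Female and male mice alone gave 0 and 2. Leaving out 1 library gave 32 to 549, leaving out early AVFs 5 and 6 gave 105, and leaving out the thyroid-rich libraries gave 71. The 4 pathway genes called at mid became 10 (Wald), 9 (likelihood ratio and filterByExpr), 7 (no filter), and 11 (adjusted *p* under 0.05), and the 3 at late became 7 (Wald), 5 (likelihood ratio and filterByExpr), 6 (no filter), and 6 (adjusted *p* under 0.05). Directions turned for log2 fold changes that were not called: *C3* at mid in females (0.057), *C4b* at mid in males (-0.52), *C1qa* and *C3* at late in males (-0.29 and -0.96), and *C3* at late without late AVF 17 (-0.12, with a range of -0.12 to 0.54 when any 1 library was left out). The cause was not tested.

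The share of C1q UMIs in macrophages and monocytes was 91.0%, 94.2%, and 89.8% in the contralateral, early, and late libraries with up to 20% mitochondrial UMIs, 98.0% and 96.1% in early and late without Scrublet's doublets, and 98.0% and 94.4% at resolution 1.0. That of the other 6 members in fibroblasts was 92.5%, 87.9%, and 94.9% with the looser filter, 94.3%, 82.8%, and 96.5% without doublets, and 86.0% and 96.0% in early and late at resolution 1.0. Cells were clustered anew in each of these alternatives. Without Scrublet's doublets, only 2 early cells were removed, yet early macrophages and monocytes numbered 2169, against 1912 in the main clustering. No paired analysis was possible because the bulk groups share no replicate numbers and each single-cell condition is 1 library. Depth limits *C7* in early AVFs and the single-cell values of small lineages.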
